A study of Mus musculus with 9 samples.

Results

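The glutathione transferases and the aldehyde dehydrogenases were studied as one group of detoxifying enzymes, taken by gene symbol: the cytosolic and mitochondrial transferases (Gsta, Gstk, Gstm, Gsto, Gstp and Gstt), the microsomal transferases (Mgst) and the aldehyde dehydrogenases (Aldh). The group held 47 of the 34638 genes of the table, 26 transferases and 21 dehydrogenases. A mean level of at least 0.5 FPKM (sequenced fragments per kilobase of transcript, scaled to library size) was reached by 39 of them, 22 transferases and 17 dehydrogenases, and these were tested. The other 8 were Aldh1l2, Aldh3b2, Aldh3b3, Aldh8a1, Gsta5, Gstm3, Gsto2 and Gstt4. Whole-lung RNA of 9 wild-type C57BL/6 mice had been sequenced, 3 mice in each of 3 groups. PBS mice received vehicle into the trachea. IL-33 mice received 0.5 µg of recombinant mouse IL-33, an epithelial alarmin, by the same route from day 0 to day 3. IL-33+LM8 mice received the same doses after an intraperitoneal injection of LM8, an inhibitor of the adaptor MyD88 through which the IL-33 receptor signals, at 10 mg/kg. PBS and IL-33 mice were females of 6 to 8 weeks taken on day 4 by the study's methods. Those methods give no sex, age or day for the IL-33+LM8 mice, and their age and day were not given in the other sources used here. No group analysed here received LM8 without IL-33.

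Glutathione transferases couple the tripeptide glutathione to reactive electrophiles, which are then exported from the cell, and aldehyde dehydrogenases oxidise aldehydes to acids. In the lung both are best known from club cells of the airway, which metabolise inhaled chemicals, and many transferase genes are targets of the stress factor NRF2. A small branch of the dehydrogenases, ALDH1A1, ALDH1A2 and ALDH1A3, makes retinoic acid from retinal.

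Library depth ran from 53877663 to 90607218 counted reads, and liver RNA was present in 6 of the 9 libraries. The summed level of 18 liver markers was 294.8 to 507 FPKM in replicates 1 and 2 of PBS, 2 and 3 of IL-33 and 1 and 2 of IL-33+LM8. It was 2.64 to 3.83 FPKM in the remaining library of each group, where albumin (Alb) lay between 0 and 0.627 FPKM against 139 to 267 FPKM in the others, and the apolipoprotein Apoa1 was at 0. Ahsg, the liver protein fetuin, was at 0.21 to 1.18 FPKM against 23.4 to 38.8 FPKM. In edgeR's test, 0 of the 18 liver markers passed in any comparison, and 0 had an unadjusted p under 0.05. With such a split inside each group, this test cannot decide whether liver RNA was balanced between groups. The median log2 fold change of the markers was 0.43 for IL-33 against PBS, 0.41 for IL-33+LM8 against IL-33 and 0.85 for IL-33+LM8 against PBS. Since liver is rich in several of these enzymes, ratios within the nearly liver-free libraries are given beside some of the results. Values of single mice are listed in the order of replicates, and the nearly liver-free libraries are PBS 3, IL-33 1 and IL-33+LM8 3. For IL-33 against PBS the log2 ratio of FPKM in these libraries was -1.72 for Gstm1, -1.47 for Aldh1a1, -1.26 for Aldh2 and -0.70 for Mgst1. Between means of the libraries with liver RNA it was -1.655, -1.52, -0.96 and -0.67. A lower level in whole lung cannot be told apart from fewer cells that carry the transcript.

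Most of the abundant members were lower with IL-33, and a few were higher. By the quasi-likelihood test of edgeR, adjusted after Benjamini and Hochberg over 16831 genes, a gene is here said to have risen or fallen at an adjusted p under 0.05, and is called where the change also reached 1 on the log2 scale. With IL-33 against PBS, 12 of the 39 members were called, where 17.0% of all genes tested were. Of these, 8 were lower, which is 20.5% of the members against 6.24% of all genes, and 4 were higher, which is 10.3% against 10.8%. Without the minimum size, 21 members fell and 8 rose, where 27.2% and 27.4% of all genes did, 54.6% in either direction. The median log2 fold change of the members was -0.47, and that of all genes was -0.0053. Levels of the groups did not overlap for 23 members lower and 10 higher with IL-33, and 31.7% of all genes did so in each direction.

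Of the Alpha class, which detoxifies lipid peroxidation products, Gsta3 had the largest fall of all members. Gsta3 was at 43.5, 65.7 and 53.3 FPKM in PBS lungs, at 10.1, 11.9 and 11.9 FPKM in IL-33 lungs and at 43.4, 38.2 and 36.6 FPKM in IL-33+LM8 lungs. No IL-33 value came near the other groups, while the highest IL-33+LM8 value lay just below the lowest PBS value. The log2 fold change with IL-33 was -2.26 ± 0.15 (SE; edgeR adjusted p = 2.2e-05). In the nearly liver-free libraries alone the log2 ratio of FPKM was -2.40, and it was -2.20 between means of the libraries with liver RNA.

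Gsta2, a low-level member of the same class, was at 4.3, 4.57 and 5.31 FPKM with PBS, 0.811, 1.41 and 1.23 FPKM with IL-33 and 3.5, 2.27 and 3.06 FPKM with IL-33+LM8. The groups did not overlap, and Gsta2 fell by 2.03 on the log2 scale with IL-33 (SE 0.25, edgeR adjusted p = 0.000371). The log2 ratio of its FPKM was -2.71 in the nearly liver-free libraries and -1.75 between means of the others. Its transcripts share 60.7% of their 31-base words with other genes, mostly Gsta1, so that reads may have been divided between these copies. Gsta4, the Alpha transferase of 4-hydroxynonenal, fell by 0.92 on the log2 scale, below the size of a call. Gsta1 was near the lower limit at 0.188 to 1.27 FPKM and did not pass the test in any comparison, and within each group its lowest value was that of the nearly liver-free library.

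Gstm1, a Mu class enzyme and the most abundant member of the whole group, fell by 1.68 on the log2 scale with IL-33 (SE 0.07, edgeR adjusted p = 3.44e-06). It was at 274, 269 and 251 FPKM in PBS lungs, 76.2, 85.2 and 87.1 FPKM in IL-33 lungs, and 212, 155 and 175 FPKM in IL-33+LM8 lungs. All IL-33 values were below all others, and the share of Gstm1 in the summed FPKM of the 26 transferases was 33.4% ± 1 (SD, n = 3) with PBS and 19% ± 0.534 with IL-33. Its near copy Gstm2-ps1, a pseudogene that shares 64.1% of its 31-base words with other genes, was at 5.47, 6.56 and 5.4 FPKM with PBS and at 1.9, 3.02 and 1.02 FPKM with IL-33. Gstm2-ps1 fell by 1.55 on the log2 scale (SE 0.38, edgeR adjusted p = 0.0108), and reads of the pair may have been exchanged. Gstm2 was at 74.7, 59.5 and 66.8 FPKM with PBS and at 34.2, 34.2 and 34.7 FPKM with IL-33, a fall of 0.97 that stopped just short of a call. Gstm2 was at 51.1, 44.7 and 49.8 FPKM with IL-33+LM8, between the other groups. The 4 remaining Mu genes tested, Gstm4, Gstm5, Gstm6 and Gstm7, lay between 0.633 and 7.17 FPKM and did not pass the test with IL-33.

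**Figure D1:**
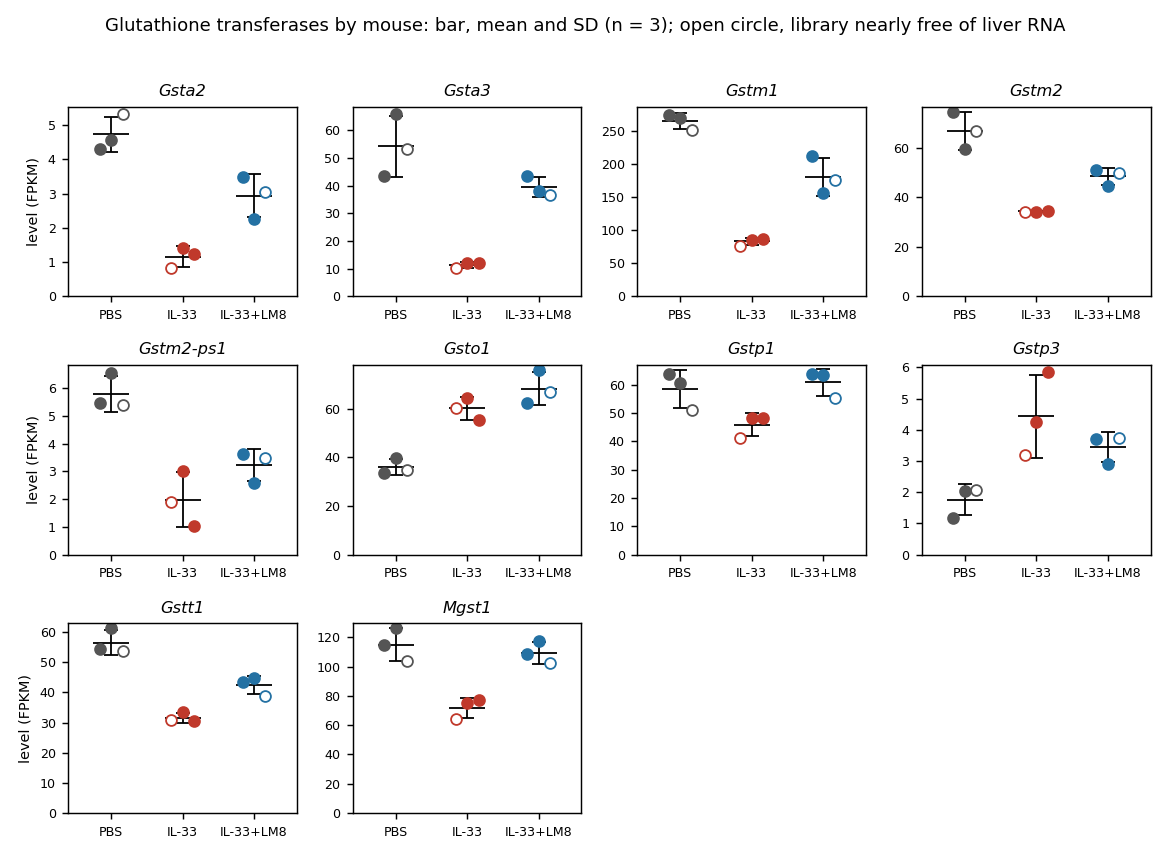
FPKM of the 10 glutathione transferases that were called in a comparison or were among the 10 most abundant members, 1 point per mouse in each group, with the mean and SD as a bar (n = 3), each panel on its own linear scale from 0. Gsta3, Gstm1 and Gstm2 have 3 IL-33 points below all others, Gsto1 has its 3 PBS points lowest, and Gstp1 and Mgst1 have the open circle of the nearly liver-free library lowest in each group.

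Upstream sequence is shown for Gsta3, the member that fell most, for Aldh1a2, a member that rose, and for Gstm1, the most abundant one, because the NRF2 binding motif known as the antioxidant response element is the textbook control site of transferase genes. Its core TGACNNNGC was searched on both strands (on the other strand it reads GCNNNGTCA) in the 250 bases before each start in RefSeq's promoter entries on GRCm38.p6. Entries were found for 37 members, and not for Aldh1a3, Aldh1l2, Aldh2, Aldh3a1, Aldh3b2, Aldh7a1, Gsta4, Gsta5, Gstm2-ps1 and Gstt2. The letters occurred for 6 of the 37 (16.2%), namely Aldh1a2, Aldh9a1, Gsta3, Gstm5, Gstm7 and Mgst1, and for 11.5% of 27025 genes. Gsta3 and Aldh1a2, which moved in opposite directions with IL-33, both held a match on the strand of the gene, beginning 121 and 112 bases before the start. Capitals mark the match, and a match in these letters is not evidence of binding. RefSeq gives 2 starts for Gstm1, of which the more upstream is shown, and neither window holds a match. Gstm7 and Mgst1 also have 2 starts each, with a match before 1 of the 2. The windows are chr1:21240335-21240584 (plus strand), chr9:71215539-71215788 (plus strand) and chr3:108017974-108018223 (minus strand).
Gsta3: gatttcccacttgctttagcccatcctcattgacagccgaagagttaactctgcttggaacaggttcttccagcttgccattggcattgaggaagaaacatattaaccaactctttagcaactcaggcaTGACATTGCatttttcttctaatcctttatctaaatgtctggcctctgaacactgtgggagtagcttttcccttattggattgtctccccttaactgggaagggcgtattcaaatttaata
Aldh1a2: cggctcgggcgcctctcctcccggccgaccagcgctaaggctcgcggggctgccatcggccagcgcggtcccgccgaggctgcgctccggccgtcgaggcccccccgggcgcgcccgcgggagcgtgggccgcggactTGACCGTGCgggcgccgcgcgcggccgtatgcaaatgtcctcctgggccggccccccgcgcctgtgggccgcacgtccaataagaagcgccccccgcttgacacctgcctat
Gstm1: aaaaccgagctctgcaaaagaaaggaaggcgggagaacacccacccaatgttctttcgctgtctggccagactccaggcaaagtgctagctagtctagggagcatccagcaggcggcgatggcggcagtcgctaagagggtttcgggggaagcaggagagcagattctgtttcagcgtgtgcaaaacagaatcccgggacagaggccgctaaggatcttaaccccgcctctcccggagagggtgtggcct

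The other transferase classes moved less, and not in one direction. Gsto1, an Omega enzyme that also reduces dehydroascorbate, was the only abundant transferase that rose with IL-33. It was at 33.7, 39.6 and 34.9 FPKM with PBS, 60.3, 64.6 and 55.5 FPKM with IL-33, and 62.4, 75.8 and 66.7 FPKM with IL-33+LM8. Both IL-33 groups lay above PBS and overlapped each other, and the rise with IL-33 was 0.74 on the log2 scale (SE 0.08, edgeR adjusted p = 0.000207), too small for a call. Its share of all transferase FPKM was 4.55% ± 0.279 (SD, n = 3) with PBS and 13.9% ± 1.23 with IL-33.

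The Pi class held members that moved in opposite directions. Gstp1, its main enzyme, was at 63.6, 60.7 and 50.9 FPKM with PBS, 41.1, 48.3 and 48.4 FPKM with IL-33 and 63.7, 63.5 and 55.4 FPKM with IL-33+LM8, and fell by 0.35 on the log2 scale with IL-33 (SE 0.11, edgeR adjusted p = 0.027). Gstp1 shares 38.5% of its 31-base words with its copy Gstp2, which fell by 0.56. Gstp3 was called higher with IL-33, at 1.18, 2.04 and 2.06 FPKM with PBS and 3.2, 4.25 and 5.84 FPKM with IL-33, a log2 fold change of 1.32 ± 0.32 (SE; edgeR adjusted p = 0.01). That rise rested on few reads, 71 to 322 a library over the 9 mice, and its log2 ratio was 0.63 in the nearly liver-free libraries and 1.65 in the others. With liver RNA as a covariate, added after seeing the data, the log2 fold change kept its call (edgeR adjusted p = 0.0129), and in the libraries with liver RNA alone it was 1.64 (edgeR adjusted p = 0.0115).

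Mgst1, a microsomal transferase with peroxidase activity, was at 114, 126 and 104 FPKM with PBS, 64, 74.9 and 76.8 FPKM with IL-33 and 109, 118 and 102 FPKM with IL-33+LM8. Its fall with IL-33 was 0.68 on the log2 scale (SE 0.10, edgeR adjusted p = 0.000945), and IL-33+LM8 values overlapped PBS values. Gstt1, of the Theta class, which handles small halogenated molecules, was at 54.5, 61.3 and 53.8 FPKM with PBS, 30.9, 33.5 and 30.5 FPKM with IL-33 and 43.4, 44.8 and 39 FPKM with IL-33+LM8. The 3 groups were apart, with a fall of 0.84 on the log2 scale with IL-33 (SE 0.07, edgeR adjusted p = 6.07e-05). Gstk1, the mitochondrial Kappa enzyme, fell by 0.78. Summed over the class, levels with IL-33 against PBS were 132 ± 8.04 against 352 ± 16.2 FPKM for Mu, 35.9 ± 2.2 against 103 ± 14.9 FPKM for Alpha, 41.8 ± 1.92 against 67.3 ± 4.15 FPKM for Theta and 60.4 ± 4.63 against 36.4 ± 2.97 FPKM for Omega (SD, n = 3). All 26 transferases together came to 435 ± 27.6 FPKM with IL-33 and 793 ± 39.6 FPKM with PBS.

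Among the dehydrogenases the most abundant ones fell with IL-33. Aldh1a1, the main cytosolic dehydrogenase and retinal oxidase of the lung, was at 217, 286 and 251 FPKM with PBS, 90.3, 86.2 and 89.6 FPKM with IL-33 and 188, 163 and 179.6 FPKM with IL-33+LM8. The 3 groups did not overlap, and its log2 fold change with IL-33 was -1.50 ± 0.10 (SE; edgeR adjusted p = 1.91e-05). Aldh2, the mitochondrial enzyme that clears acetaldehyde, was at 158, 164 and 195 FPKM with PBS, 81.4, 79.8 and 86.2 FPKM with IL-33 and 119, 102 and 129 FPKM with IL-33+LM8. Aldh2 fell by 1.07 with IL-33 (SE 0.09, edgeR adjusted p = 5.1e-05), with groups apart, and its call was lost without the nearly liver-free PBS replicate 3, where the log2 fold change was -0.97.

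Aldh3a1 and Aldh6a1 were lower at smaller levels. Aldh3a1, which oxidises medium-chain aldehydes and is known from exposed epithelia, was at 12.2, 13.9 and 12.2 FPKM with PBS and 3.3, 2.28 and 4.6 FPKM with IL-33, a fall of 1.91 on the log2 scale (SE 0.24, edgeR adjusted p = 0.000453). Aldh6a1, the mitochondrial methylmalonate-semialdehyde dehydrogenase of valine breakdown, was at 17, 17.9 and 18.2 FPKM with PBS, 7.01, 6.91 and 6.62 FPKM with IL-33 and 14.5, 11.3 and 12.7 FPKM with IL-33+LM8. Its 3 groups were well apart, with a fall of 1.37 with IL-33 (SE 0.05, edgeR adjusted p = 1.65e-06). Aldh3b1, a membrane-bound enzyme for lipid aldehydes, was at 40.7, 43 and 41.7 FPKM with PBS and 29.1, 33.9 and 28.4 FPKM with IL-33, and fell by 0.46 (SE 0.08, edgeR adjusted p = 0.00174). It was at 38.8, 41 and 37.2 FPKM with IL-33+LM8, overlapping PBS. Aldh5a1, Aldh7a1, Aldh4a1 and Aldh3a2 also fell, by 0.83, 0.70, 0.66 and 0.47 on the log2 scale.

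3 dehydrogenases were called higher with IL-33. Aldh18a1, the mitochondrial enzyme that starts proline synthesis from glutamate, was at 3.44, 3.38 and 3.68 FPKM with PBS, 10.3, 10.6 and 10.4 FPKM with IL-33 and 6.73, 8.91 and 8.3 FPKM with IL-33+LM8. Its groups did not overlap, and the rise with IL-33 was 1.57 on the log2 scale (SE 0.07, edgeR adjusted p = 3.18e-06). The other 2 were the retinal dehydrogenases Aldh1a2 and Aldh1a3. Aldh1a2 was at 15.9, 8.33 and 12.1 FPKM with PBS, 52, 48.9 and 53 FPKM with IL-33 and 21.6, 28.2 and 24.1 FPKM with IL-33+LM8, a log2 fold change of 2.08 ± 0.21 with IL-33 (SE; edgeR adjusted p = 0.000168). Aldh1a3 was at 0.292, 0.572 and 0.584 FPKM with PBS, 5.67, 4.43 and 6.06 FPKM with IL-33 and 9.34, 27.5 and 18.6 FPKM with IL-33+LM8, a log2 fold change of 3.47 ± 0.28 with IL-33 (SE; edgeR adjusted p = 5.09e-05). Both were apart in all 3 groups, but in a different order, since IL-33+LM8 lungs stood between the others for Aldh1a2 and above them for Aldh1a3. Smaller rises were measured for Aldh1b1 (0.90), Aldh16a1 (0.68) and Aldh9a1 (0.39).

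**Figure D2:**
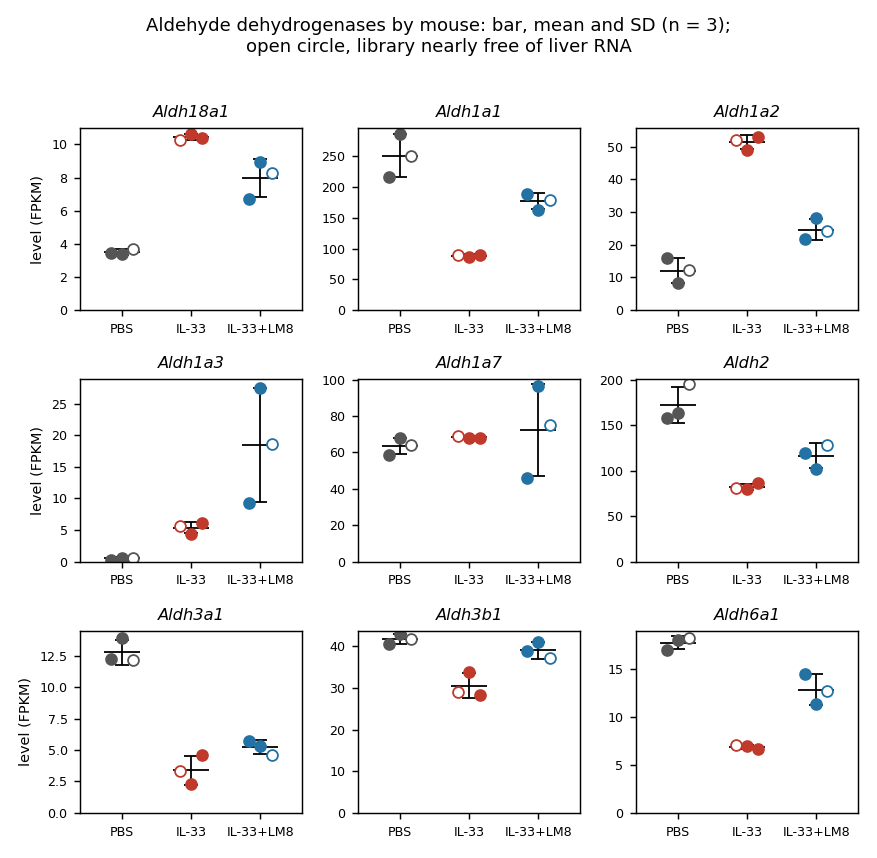
FPKM of the 9 aldehyde dehydrogenases that were called in a comparison or were among the 10 most abundant members, 1 point per mouse, with the mean and SD as a bar (n = 3) and a linear scale from 0 in each panel. Aldh1a1, Aldh2 and Aldh6a1 are lowest with IL-33, Aldh18a1 and Aldh1a2 are highest there, and the 3 IL-33+LM8 mice spread from 9.34 to 27.5 FPKM for Aldh1a3.

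Together the 3 retinal dehydrogenases came to 264 ± 31.1 FPKM with PBS, 145 ± 5.07 FPKM with IL-33 and 220.1 ± 1.91 FPKM with IL-33+LM8 (SD, n = 3). Aldh1a1 made up 93% to 97% of that sum in PBS lungs, 60.2% to 61.8% in IL-33 lungs and 74.6% to 85.9% in IL-33+LM8 lungs. The share of Aldh1a2 was 2.82% to 6.83%, 35% to 35.7% and 9.87% to 12.9% in the same order, and that of Aldh1a3 was 0.126% to 0.222%, 3.17% to 4.08% and 4.26% to 12.6%. Aldh1a7, the mouse copy of Aldh1a1 on the same chromosome that shares 13.8% of its 31-base words with it, did not pass the test with IL-33 while Aldh1a1 fell. It was at 58.7, 67.7 and 64 FPKM with PBS and 69, 68 and 67.7 FPKM with IL-33 (log2 fold change 0.10 ± 0.06, SE; edgeR adjusted p = 0.159).

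**Figure D3:**
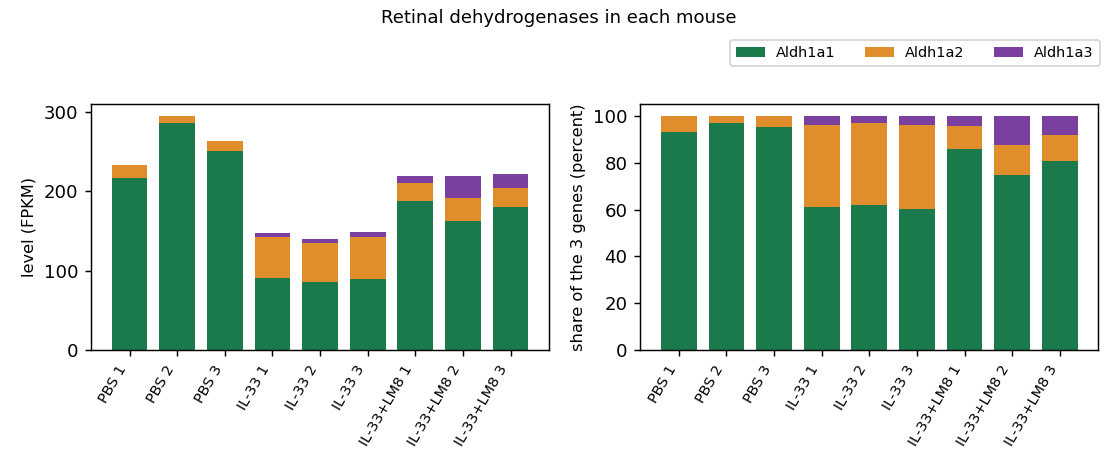
Stacked levels of Aldh1a1, Aldh1a2 and Aldh1a3 in each of the 9 mice, in FPKM (left) and in percent of their sum (right), with bars from 0. Aldh1a1 makes up over 93% of the sum in the 3 PBS mice, Aldh1a2 takes 35% to 35.7% in the 3 IL-33 mice, and Aldh1a3 is largest in IL-33+LM8 mouse 2.

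Whether MyD88 inhibition altered these levels was asked by comparing IL-33+LM8 with IL-33 lungs. Of the 39 members tested, 5 were called, where 5.39% of all genes were. Of these, 4 were higher (10.3% of the members against 1.46% of all genes) and 1 was lower (against 3.93%). Without the minimum size, 17 members were higher with LM8 and 4 lower, where 12.6% and 13.9% of all genes were, 26.5% in either direction. The groups did not overlap for 20 members higher and 4 lower, against 21.2% and 22.0% of all genes. The median log2 fold change was 0.36 for the members and -0.0062 for all genes. This comparison shares its IL-33 mice with the previous one, so an opposite sign in the pair is not independent evidence.

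Gsta3 had the largest change with LM8, a log2 fold change of 1.80 ± 0.09 (SE; edgeR adjusted p = 5.62e-05), from 11.3 ± 1.06 to 39.4 ± 3.56 FPKM (SD, n = 3). Gsta2 was higher by 1.34 on the log2 scale (SE 0.28, edgeR adjusted p = 0.0118), with a log2 ratio of 1.92 in the nearly liver-free libraries and 1.13 in the others. Gstm1 was higher by 1.12 (SE 0.11, edgeR adjusted p = 0.000505), and without IL-33+LM8 mouse 1 its log2 fold change of 1.00 was just under the size of a call. Aldh1a1 rose from 88.7 ± 2.17 to 177 ± 12.8 FPKM, a log2 fold change of 1.00 ± 0.07 that was just short of the same size (SE; edgeR adjusted p = 0.000132) and passed it under 9 alternatives, among them DESeq2. Aldh6a1 was higher by 0.90, Mgst1 by 0.61, Gstk1 by 0.57, Gsta4 by 0.56, Aldh2 by 0.50, Gstm2 by 0.50, Gstt1 by 0.42 and Gstp1 by 0.41, all at an edgeR adjusted p under 0.05. Aldh3a1, at 5.73, 5.37 and 4.64 FPKM with LM8, and Gstm2-ps1, at 3.63, 2.57 and 3.5 FPKM, did not pass the test against IL-33 (edgeR adjusted p = 0.109 and 0.237).

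Aldh1a2 was the member called lower with LM8, at 24.7 ± 3.31 against 51.3 ± 2.15 FPKM (SD, n = 3), a fall of 1.06 on the log2 scale (SE 0.10, edgeR adjusted p = 0.000419). The call was lost without IL-33+LM8 mouse 1, where the log2 fold change was -0.97. Aldh1b1, a mitochondrial relative of Aldh2, fell by 0.95, Aldh18a1 by 0.38 and Aldh16a1 by 0.36. Aldh1a3 went the other way from its relative Aldh1a2, with a log2 fold change of 1.78 ± 0.36 (SE; edgeR adjusted p = 0.0097), and its 3 IL-33+LM8 values lay between 9.34 and 27.5 FPKM. In the libraries with liver RNA alone, 2 mice against 2, the values of Aldh1a3 and Gsta2 were 1.82 and 1.13 and no longer passed the test (edgeR adjusted p = 0.06 and 0.0898).

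The 3 IL-33+LM8 mice were not alike. For 9 of the 12 members called with IL-33, mouse 2 of that group had the value furthest in the direction of IL-33, mouse 3 had it for 3 and mouse 1 for none. The same count was not made over all genes called with IL-33, so this order cannot be said to be particular to the members. Mouse 2 had the lowest Gstm1, Aldh1a1, Aldh2, Aldh6a1 and Gsta2 of its group and the highest Aldh1a2, Aldh1a3 and Aldh18a1. Aldh1a7 followed the same order as Aldh1a3, at 46, 96.3 and 74.8 FPKM in mice 1, 2 and 3, a wider spread than the 58.7 to 69 FPKM of the other 6 mice. Mice 1 and 2 both carried liver RNA, at 496 and 507 FPKM of the markers.

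**Figure D4:**
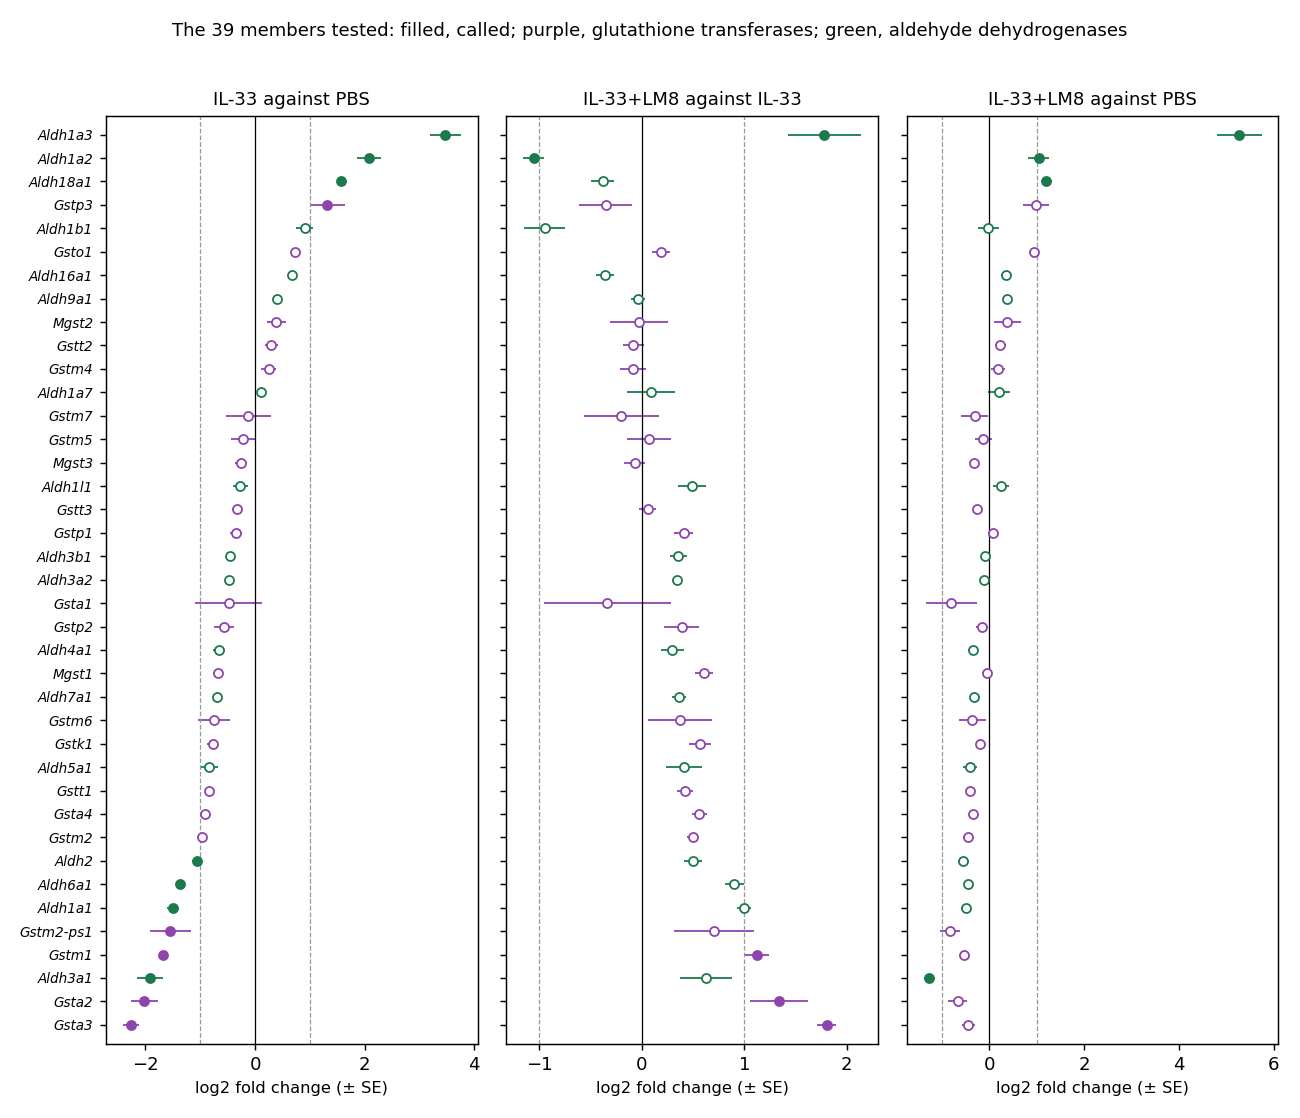
Log2 fold change with its standard error for the 39 members tested, in the 3 comparisons, ordered by the change with IL-33. Filled points are called (adjusted p under 0.05 and at least 1 on the log2 scale, dashed lines), purple points are transferases and green points dehydrogenases. Gsta3 lies lowest with IL-33 at -2.26 and highest with LM8 at 1.80, and Aldh1a3 reaches 5.27 against PBS.

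IL-33+LM8 lungs were also set against PBS lungs. Of the 39 members, 4 were called, where 7.33% of 16829 genes were: 3 higher (5.87% of all genes) and 1 lower (1.46%). Without the minimum size, 12 were lower and 7 higher, where 13.4% and 16.3% of all genes were, 29.7% in either direction. The groups did not overlap for 18 members lower and 7 higher, against 23.9% and 23.4% of all genes. The median was -0.19, against 0.0035 for all genes. No transferase was called, with 6 lower and 2 higher, Gsto1 and Gstp3, at an edgeR adjusted p under 0.05.

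Aldh1a3 had a log2 fold change of 5.27 ± 0.47 against PBS (SE; edgeR adjusted p = 0.000364), with means of 18.5 ± 9.08 and 0.483 ± 0.165 FPKM (SD, n = 3). Aldh18a1 was higher by 1.20 (SE 0.12, edgeR adjusted p = 0.000571) and Aldh1a2 by 1.04 (SE 0.23, edgeR adjusted p = 0.0146). The call of Aldh1a2 was lost without PBS mouse 2 (0.84) or without IL-33+LM8 mouse 2 (0.93). Aldh3a1 was the member called lower, by a fall of 1.27 on the log2 scale (SE 0.11, edgeR adjusted p = 0.000368). Gsto1 was higher by 0.94 (SE 0.09, edgeR adjusted p = 0.000576) and Gstp3 by 0.98 (SE 0.27, edgeR adjusted p = 0.0314), and with the replicate number as a block Gstp3 was called as the fifth member at 1.00. Gstm1, Aldh1a1 and Aldh2 fell by 0.54, 0.49 and 0.55. Of the 8 members called lower with IL-33, 7 had all 3 IL-33+LM8 values between those of IL-33 and PBS, and of the 4 called higher, 2 had. These members were picked by their IL-33 values, which favours such an order, and its share over all genes was not counted.

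The members with few reads did not share a pattern. Aldh8a1, a liver and kidney enzyme of the kynurenine route, had no read in the 3 nearly liver-free libraries, where a count of 0 allows up to 3, and stood at 0.0832 to 0.396 FPKM in the other 6. Gstm3, of the Mu class, was at 0.316, 0.611 and 0.955 FPKM with PBS, 0.0482, 0.225 and 0.317 FPKM with IL-33 and 0.693, 0.331 and 0.682 FPKM with IL-33+LM8, and was highest in the nearly liver-free PBS library. Aldh3b2 lay between 0.0842 and 0.379 FPKM, highest in the nearly liver-free IL-33 library. Gsto2, the second Omega gene, lay between 0.188 and 0.527 FPKM, and its groups overlapped. Gstt4, Gsta5 and Aldh3b3 had 0 to 15 reads a library. Aldh1l2, a mitochondrial folate enzyme, was at 0.23 to 0.33 FPKM with PBS and 0.71 to 0.77 FPKM with IL-33, below the minimum level for a test. Its cytosolic partner Aldh1l1, which is abundant in liver, passed that minimum with 1087 to 1952 reads a library. Aldh1l1 was at 4.64, 5.71 and 4.08 FPKM with PBS, 3.83, 3.84 and 4.32 FPKM with IL-33 and 5.87, 6.38 and 4.59 FPKM with IL-33+LM8, lowest in each group in the nearly liver-free library.

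The genes around these enzymes were read from 4 lists. With IL-33, 10.8% of all genes were called higher and 6.24% lower, and without the minimum size 27.4% rose and 27.2% fell. With LM8 the called shares were 1.46% higher and 3.93% lower against IL-33, and 5.87% and 1.46% against PBS. Of 27 genes of glutathione supply and peroxidases, 8 (29.6%) were called higher with IL-33 and none lower at an adjusted p under 0.05 and a change of 1, while 6 fell by less. Without the minimum size 12 rose, and the median log2 fold change was 0.35. Slc7a11, the cystine importer, was at 0.123, 0.093 and 0.128 FPKM with PBS and 3.5, 3.07 and 3.42 FPKM with IL-33, a log2 fold change of 4.84 ± 0.14 (SE; edgeR adjusted p = 1e-06). Gclc, the catalytic subunit of the first enzyme of glutathione synthesis, was at 53.1, 57.5 and 57.6 FPKM with PBS and 146, 117 and 133 FPKM with IL-33 (log2 fold change 1.23). Both stood above PBS in every IL-33 lung, while Gstm1 and Gsta3 stood below it. Alox5ap, which presents arachidonate to 5-lipoxygenase and is a relative of the microsomal transferases, rose by 1.74 and Hpgds, the Sigma class transferase that makes prostaglandin D2, by 1.48. With LM8 against IL-33, Slc7a11 fell by 2.02 and Ggt1, which breaks down extracellular glutathione, was higher by 2.38. Against PBS, 6 were called higher and none lower, Slc7a11 (2.84), Alox5ap (1.86), Ggt1 (1.64) and Ptges (1.17) foremost.

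Of 24 genes of the NRF2 axis, 2 (8.33%) were called higher with IL-33 and 3 (12.5%) lower, against 10.8% and 6.24% of all genes. The balance was the other way without the minimum size, where 13 rose and 7 fell, with a median log2 fold change of 0.46. Hmox1, heme oxygenase, rose from 17.4 ± 0.388 to 90.8 ± 9.46 FPKM (SD, n = 3; log2 fold change 2.38) and the reductase Akr1b8 by 1.06. Ces1g, a carboxylesterase, Prdx6, a peroxidase that uses glutathione, and Ephx1, microsomal epoxide hydrolase, fell by 2.50, 1.37 and 1.05. With LM8 against IL-33, Hmox1 fell by 1.38, and Ces1g and Prdx6 were higher by 1.27 and 1.00. Against PBS, Hmox1 was higher by 1.02 and Ces1g lower, at -1.22. Without the minimum size 6 were higher and 3 lower with LM8 against IL-33, and 10 higher and 3 lower against PBS.

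Of 20 retinoid genes tested, 1 (5%) was called higher with IL-33 and 2 (10%) lower, against 10.8% and 6.24% of all genes. Without the minimum size 1 rose and 8 fell (median log2 fold change -0.11). Dhrs9, a retinol dehydrogenase that acts one step before the retinal dehydrogenases, was at 0.331, 0.334 and 0.374 FPKM with PBS and 4.15, 3.79 and 3.91 FPKM with IL-33, a log2 fold change of 3.50 ± 0.12 (SE; edgeR adjusted p = 1.55e-06). Adh1, an alcohol dehydrogenase that also oxidises retinol and fell by 1.24, and Lrat, which stores retinol as an ester and went from 15.2 ± 2.28 to 6.18 ± 2.83 FPKM (SD, n = 3), were the genes called lower. None of the 20 was called with LM8 against IL-33, where 2 were higher at an edgeR adjusted p under 0.05, and against PBS Dhrs9 was higher by 3.51 and Adh1 lower, at -1.04. Of 14 genes of alcohol, aldehyde and carbonyl reduction, 3 (21.4%) were called lower with IL-33 and none higher: Cbr2, the abundant lung carbonyl reductase, at -2.17, the aldehyde oxidase Aox1 at -1.33 and the reductase Akr1c14 at -1.07. Without the minimum size 3 of these 14 rose and 7 fell (median -0.17). Cbr2 was at 2197, 2447 and 2097 FPKM with PBS, 471, 526 and 502 FPKM with IL-33 and 1556, 1099 and 1212 FPKM with IL-33+LM8, with no overlap of groups. With LM8 against IL-33, Cbr2 and Aox3 were higher by 1.37 and 1.11, and against PBS none of the list was called, with 2 higher and 2 lower at an edgeR adjusted p under 0.05.

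The makeup of the tissue moved with the same contrasts. Of 6 club cell markers, 3 were called lower with IL-33 and none higher, and their summed level, of which Scgb1a1 gave 92.4% or more in each mouse, was 21822 to 23851 FPKM with PBS, 8592 to 9651 FPKM with IL-33 and 17288 to 18780 FPKM with IL-33+LM8. These values do not overlap and lie in the order of Gsta3, Gstm1 and Aldh1a1. Markers called lower with IL-33 numbered 1 of 6 for ciliated cells, 1 of 6 for alveolar type 2 cells, 2 of 6 for alveolar type 1 cells and 3 of 6 for endothelium, with none higher. Of all genes, 6.24% were called lower and 10.8% higher. Their sums had the same order of groups, with 235 to 264, 119 to 130 and 181 to 187 FPKM for ciliated cells (46.1% or more of it Tppp3), 13263 to 14349, 7114 to 7335 and 11684 to 12857 FPKM for type 2 cells (Sftpc), 1332 to 1440, 712 to 745 and 1033 to 1091 FPKM for type 1 cells (Ager), and 632 to 711, 389 to 426 and 597 to 615 FPKM for endothelium. Several single markers did not have this order. Cldn5 of the endothelial list was at 139.5 to 224 FPKM with PBS, 144 to 158 FPKM with IL-33 and 193 to 237 FPKM with IL-33+LM8. Sftpa1 of type 2 cells was at 874 to 989, 1009 to 1052 and 1314 to 1649 FPKM. Pdpn of type 1 cells was at 46.7 to 48.1, 54.9 to 60.05 and 52.95 to 62.1 FPKM. The club cell marker Cldn10 was at 8.01 to 8.9, 5.12 to 7.13 and 11.6 to 13.1 FPKM. Slc34a2 of type 2 cells was at 292 to 332, 260 to 290 and 324 to 370 FPKM. Abca3 of the same list was at 41.3 to 51.3, 30.6 to 32.5 and 29 to 32.7 FPKM. Aqp5 of type 1 cells was at 74.25 to 86.7, 43.9 to 53.1 and 43.8 to 53.4 FPKM. The groups overlapped for Foxj1 of ciliated cells, Emcn of endothelium, and Scgb3a1 and Bpifa1 of club cells. Values with PBS overlapped those with IL-33+LM8 for Lamp3 of type 2 cells and Ccdc113, Dnah5 and Tekt1 of ciliated cells. Mesothelial markers, 2 of 4 called lower, were at 46.1 to 96.2, 15.4 to 42.4 and 30.1 to 35 FPKM. Aldh1a2, a gene known from mesothelium, was higher with IL-33 than with PBS. Within PBS mice 1, 2 and 3 it was at 15.9, 8.33 and 12.1 FPKM, in the order of the marker sums of 96.2, 46.1 and 69.1 FPKM. Within the IL-33 mice (sums of 28.9, 42.4 and 15.4 FPKM) and the IL-33+LM8 mice (35, 30.1 and 31.3 FPKM) its order was the reverse. The part of these cells in the members' changes was not tested.

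Markers of several immune cells and of goblet cells were higher with IL-33. Called higher were 4 of 5 eosinophil, 5 of 6 monocyte-derived and dendritic cell, 5 of 6 neutrophil and 5 of 5 goblet cell markers, against 10.8% of all genes. Epx of the eosinophil list was at 0 in the PBS mice. The alveolar macrophage list, 4 of 6 called higher and nearly all Chil3, was at 212 to 252 FPKM with PBS, 4092 to 4676 FPKM with IL-33 and 1813 to 2141 FPKM with IL-33+LM8, and its members Marco and Krt79 were called lower with IL-33. Eosinophil markers, mostly Ear2, were at 97.5 to 111, 580.5 to 638 and 139.8 to 175 FPKM, and markers of monocyte-derived and dendritic cells at 74.1 to 83.5, 478 to 496 and 205 to 227 FPKM. Like Aldh1a2 and Aldh18a1, both lists stood highest with IL-33, as did the alveolar macrophage and fibroblast lists. Neutrophil markers were at 20.4 to 28.5, 163 to 185 and 816 to 941 FPKM, highest with LM8 as Aldh1a3 was. Within that group the order differed. In IL-33+LM8 mice 1, 2 and 3 the neutrophil sum was 941, 816 and 822 FPKM, and Aldh1a3 was at 9.34, 27.5 and 18.6 FPKM. Goblet cell markers were at 7.8 to 18.5, 440.4 to 479.5 and 523 to 549 FPKM, also highest with LM8. Their sum was 523, 549 and 527 FPKM in IL-33+LM8 mice 1, 2 and 3. The mucus regulator Clca1 gave 87.9% or more of that sum in each mouse given IL-33. With LM8 against IL-33 no goblet cell marker was called higher, and the mucin Muc5ac was called lower, at 5.79 to 6.42 against 11.5 to 14.2 FPKM (log2 fold change -1.04; edgeR adjusted p = 0.000327). Fibroblast markers, 2 of 6 called higher and 1 lower, were at 188 to 211, 291 to 338 and 174 to 183 FPKM, and muscle and fat markers at 137 to 139, 23.7 to 38.9 and 38.2 to 67.1 FPKM. Of that list 4 were tested, of which the muscle genes Ckm, Myh6 and Myl7 were called lower and the fat gene Adipoq was not called. Whether these cells carry the members that rose was not tested.

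**Figure D5:**
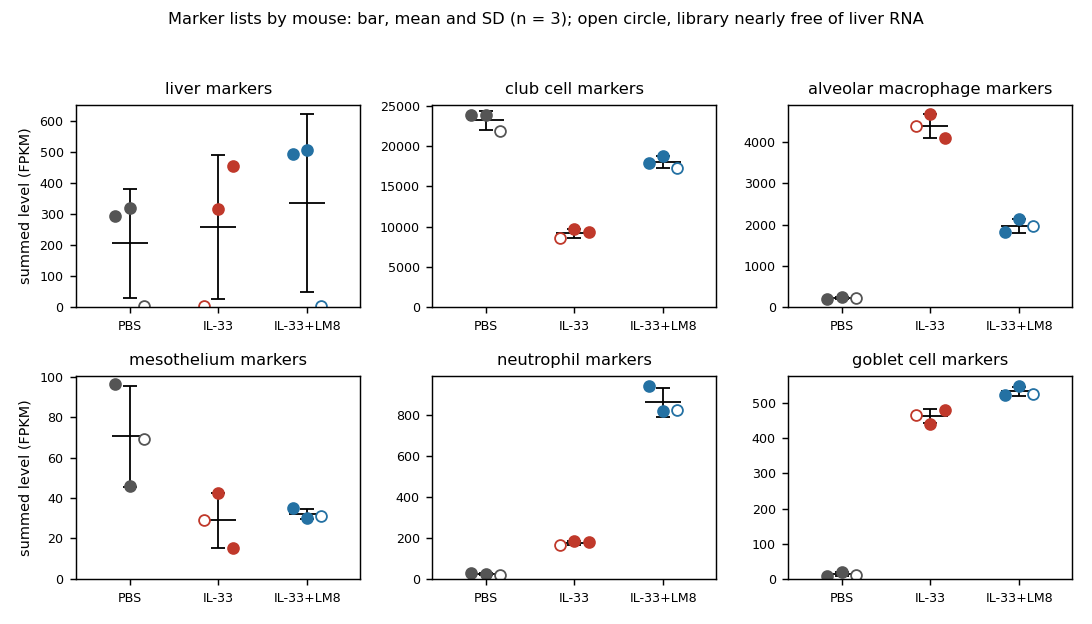
Summed FPKM of 6 marker lists, 1 point per mouse in each group with the mean and SD as a bar (n = 3) and linear scales from 0. Liver markers split each group into 2 filled points at 295 FPKM or more and 1 open point below 4 FPKM, club cell and mesothelial markers are lower with IL-33, alveolar macrophage markers are highest with IL-33, and neutrophil markers are highest with IL-33+LM8.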

How the data were processed

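Lung RNA of 9 mice was analysed from a table in which the authors deposited whole-number read counts and FPKM values for 34638 genes. The submitters' processing notes list HISAT2 2.0, StringTie 1.3.0, Bowtie 0.12.2 and mm10, whereas only 1 of the 47 members has the coordinates of GENCODE M21 on GRCm38, so the table's coordinates are not printed. How reads shared by gene copies were counted was not given in the sources used here.

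Counts were tested with edgeR 4.0.16 (TMM, quasi-likelihood) in R 4.3.3 on the 6 mice of each comparison, for genes with a mean of at least 0.5 FPKM over the 9 mice and a count above 0. P-values were adjusted by Benjamini-Hochberg over all genes tested, and calls also needed a log2 fold change of at least 1. Standard errors were derived from the fold change and the F statistic. For single values an exact test of 3 against 3 mice could not go below p = 0.1 and was not used. DESeq2 1.42.0, limma 3.58.1, other filters, scalings and a replicate block were alternatives. On counts simulated for IL-33 against PBS over 16831 genes, edgeR recovered 185 of 200 changed genes with 8 false calls. The changed genes were drawn from well-covered ones, with a median log2 fold change of 2.01 among those raised. Recovery of changes near 1 or of genes with few reads was not tested. Between mice of a group, counts varied at least 24.1 times more than sampling alone gives, and no library was a copy. The labels do not say more of the mice, and p-values measure the spread between them.

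Deviations of same-numbered mice correlated at 0.307, 0.322 and 0.672 between PBS and IL-33+LM8, where these mice also share their liver RNA status. PBS 3 and IL-33 1, both nearly liver-free but with different numbers, correlated at 0.647. Over all groups the range was -0.419 to 0.672 for same-numbered mice and -0.471 to 0.669 for others, so a pairing by number was not shown. Same-numbered mice of the other groups correlated at -0.419 to 0.28. Values in every mouse are given for members called in a comparison and for the 10 most abundant, and in each pathway list up to 4 called genes a direction are named by size. Other genes named, such as Gsta4, Aldh1l1 and Aldh8a1, were chosen after their values were seen. Members and gene lists were chosen with earlier results of these data known. Shared 31-base words were counted in GENCODE M21 transcripts. One marker list is not reported here.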

Additional observations from a re-analysis of the deposited data

How the results depend on the processing

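With no minimum fold change, members called numbered 29 (IL-33 against PBS), 21 (IL-33+LM8 against IL-33) and 19 (IL-33+LM8 against PBS), and pathway genes 57, 25 and 36. For the pathway genes a mean of at least 5 FPKM gave 4 calls in each LM8 comparison, with 62 genes tested, and limma on log2(FPKM + 1) gave 4 and 5, against 7 and 10. Leaving out 1 mouse at a time gave 11 to 13, 4 to 7 and 3 to 5 members and 18 to 20, 5 to 8 and 8 to 12 pathway genes. With a replicate block the members called were 12, 5 and 5 and the pathway genes 20, 6 and 11, and Gstp3 against PBS was the one member whose call changed. With liver RNA as a covariate, chosen after seeing the data, 12, 5 and 4 members were called, and 12, 4 and 3 in the libraries with liver RNA alone. Over the members called, 341 single fold changes under these alternatives kept direction and call, 12 kept direction but lost the call, and 0 reversed. Dropping the minimum fold change keeps every call by construction, and its values are counted among the 341. Besides those in the text, Gstp3 (0.96, IL-33 against PBS), Gsta2 (0.87, with LM8) and Aldh18a1 (0.99, IL-33+LM8 against PBS) lost it with limma on log2(FPKM + 1), where the added 1 shrinks low genes. In the libraries with liver RNA alone Aldh2 (-0.96, IL-33 against PBS) and Aldh1a2 (1.05, IL-33+LM8 against PBS, edgeR adjusted p = 0.0509) lost it. Aldh1a1 with LM8 gained a call under 9 alternatives, for example at 1.01 with all 9 mice in 1 fit. Gsta1 (13 to 80 reads a library) and Gstm7 (91 to 258 reads) were thinly covered, and the size of change detectable at such counts was not tested.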
